A study of Mus musculus with 6 samples.

Results

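The Tas1r genes, Tas1r1, Tas1r2 and Tas1r3, encode the subunits of the sweet and umami taste receptors. They were taken by gene symbol, and all 3 were found among the 23361 genes of the deposited table. Taste cells had been isolated from the circumvallate and foliate (CV/Fol) papillae, which carry the taste buds of the posterior tongue, of C57BL/6 mice at 2 and 6 months of age. The RNA of 3 pools was sequenced for each age, with 4 mice in a pool at the younger age and 3 at the older, and with no mutant allele or agent in either group. The sample labels give 2 and 6 months, whereas the series' design text also speaks of 3 months. The labels and the methods do not state the sex of the mice. The table holds 1 value per gene and age, in FPKM (fragments mapped to a gene, scaled by its transcript length and by the mapped reads). From 1 value per age, no SD, interval or test can be computed. The table also holds p-values of the authors' own comparison, which were not used. The differences between the ages are thus given here without a replicate check. Measurements by other assays were not used here.

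Tas1r proteins are class C G protein-coupled receptors, with a large ligand-binding domain outside the cell and a membrane-spanning part that is encoded by the last exon. Tas1r2 pairs with Tas1r3 to form the receptor for sugars and sweeteners, and Tas1r1 pairs with Tas1r3 to form the umami receptor for amino acids. Tas1r3 is thus common to both. The receptors sit in type II taste cells and act through a G protein, Plcb2, the calcium store channel Itpr3 and the cation channel Trpm5. In the mouse, Tas1r2 is known mostly from the posterior papillae and Tas1r1 from the fungiform papillae of the anterior tongue.

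The 3 genes lie on chromosome 4 of GRCm38. RefSeq places Tas1r2 at chr4:139653538-139670280 on the plus strand. Tas1r1 spans chr4:152027914-152038490 and Tas1r3 spans chr4:155859268-155863353, both on the minus strand. In GENCODE M21, the main transcript of each gene has 6 exons, with coding lengths of 842, 843 and 858 codons for Tas1r1, Tas1r2 and Tas1r3. Exons 2 to 5 are of similar sizes in the 3 genes, as exon 3 with 762, 777 and 804 bases in the same order, while the introns are shortest in Tas1r3. The transcript of Tas1r3 is the longest, with 3523 bases against 2863 for Tas1r1 and 3047 for Tas1r2, and FPKM corrects for such lengths.

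**Figure D1:**
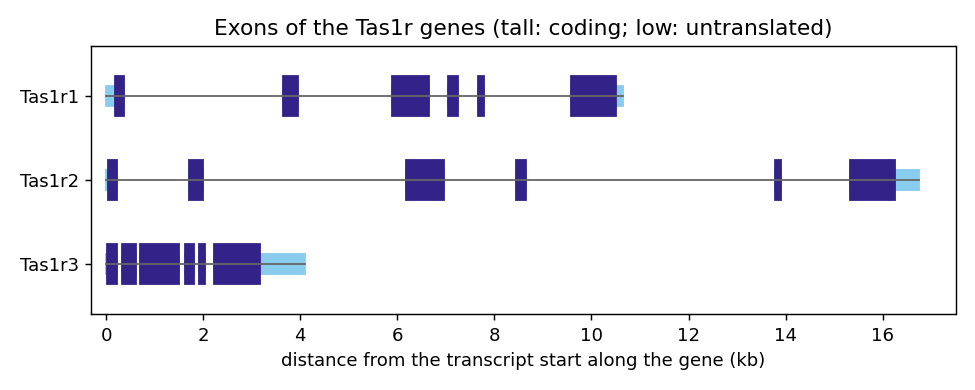
Exons of the main GENCODE M21 transcript of each Tas1r gene, drawn to scale from the transcript start (x axis, kb along the gene). Tall dark boxes are coding and low light boxes untranslated. Each gene has 6 exons, and Tas1r3 is the shortest gene although its transcript is the longest, with 3523 bases.

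The subunits share only short runs of sequence, which bears on how reads are assigned to them. Aligned coding sequences were identical at 52.6% of positions for Tas1r1 and Tas1r2, at 49.3% for Tas1r1 and Tas1r3 and at 49.7% for Tas1r2 and Tas1r3. The longest run of bases that 2 of them share without a mismatch was 14. The stretch of 90 coding bases that is most alike is shown first, since a shared read would be likeliest there. It lies in exon 3, at chr4:152032541-152032630 in Tas1r1, chr4:139659768-139659857 in Tas1r2 and chr4:155862521-155862610 in Tas1r3. Capitals mark the 46 bases that are the same in all 3 genes, and each sequence is on the strand of its gene.
Tas1r1: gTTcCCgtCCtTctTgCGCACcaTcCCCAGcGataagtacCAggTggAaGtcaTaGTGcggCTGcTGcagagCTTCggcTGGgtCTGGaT
Tas1r2: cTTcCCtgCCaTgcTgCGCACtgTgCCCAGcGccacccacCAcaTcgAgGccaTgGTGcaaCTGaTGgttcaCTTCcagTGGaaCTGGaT
Tas1r3: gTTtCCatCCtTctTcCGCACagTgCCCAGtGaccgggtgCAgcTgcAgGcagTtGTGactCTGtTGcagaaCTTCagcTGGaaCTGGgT
The least alike stretch of 90 aligned bases, with 13 bases in common, lies in exon 6, the exon of the membrane-spanning part. Its positions are chr4:152028816-152028905 in Tas1r1, chr4:139668960-139669049 in Tas1r2 and chr4:155860966-155861055 in Tas1r3, and it shows how little the subunits share outside the conserved stretches.
Tas1r1: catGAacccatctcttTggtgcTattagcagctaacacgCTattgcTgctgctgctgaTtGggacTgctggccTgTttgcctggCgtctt
Tas1r2: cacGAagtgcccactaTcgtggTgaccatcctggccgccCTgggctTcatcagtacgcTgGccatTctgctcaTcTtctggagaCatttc
Tas1r3: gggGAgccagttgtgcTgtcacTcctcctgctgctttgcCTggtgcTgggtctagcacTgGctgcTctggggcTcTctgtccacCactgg
Of 758 such ungapped stretches, the median had 26 bases in common.

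Reads could be shared with other gene models at 2 places. No stretch of 50 bases of the Tas1r1 or Tas1r3 transcript occurs in a transcript of another gene, 0 of 2814 and 0 of 3474 stretches. For Tas1r2, 1413 of 2998 stretches also occur in Gm21969, a GENCODE model that is not a row of the table. The last bases of Tas1r3 overlap the end of Dvl1, a Wnt pathway gene on the opposite strand, by 36 bases, or 1.02% of the Tas1r3 transcript. The level of Dvl1 was 47.4 FPKM in the younger and 54.4 FPKM in the older mice. The library kit and the counting are not stated to use strand, so reads that run past the end of Dvl1 cannot be told apart from Tas1r3 reads, and their part in the Tas1r3 value was not tested.

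Tas1r3 was the most abundant member at both ages. Its level was 10.3 FPKM in 2 month taste cells and 14.6 FPKM in 6 month taste cells. Tas1r2 had 9.67 FPKM in the younger and 11.5 FPKM in the older cells. Tas1r1, the umami subunit, was the lowest, with 2.70 FPKM in the younger and 2.90 FPKM in the older cells. The order of levels was therefore the same at both ages. Tas1r3 and Tas1r2 stood close together at 2 months, with a ratio of 1.06, and whether these neighbours differ cannot be judged without the spread between pools. The ratio of Tas1r3 to Tas1r2 was 1.27 at 6 months. Tas1r2 was 3.59 times as high as Tas1r1 at 2 months and 3.97 times at 6 months.

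**Figure D2:**
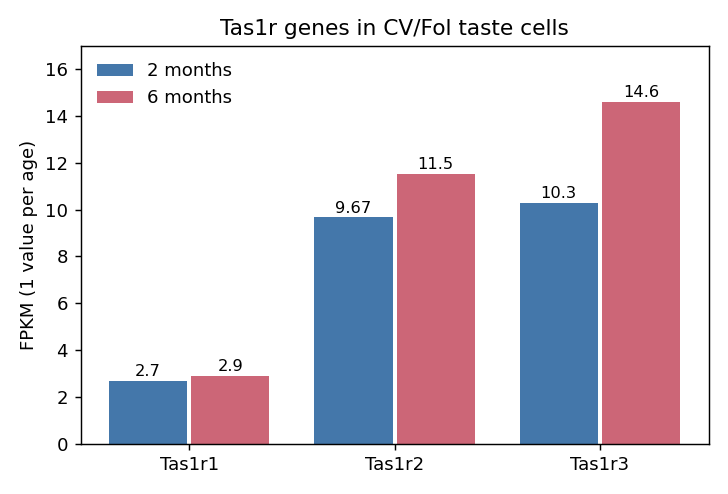
Level of each Tas1r gene in CV/Fol taste cells (y axis, FPKM from 0) at 2 months (blue) and 6 months (red). Each bar is the authors' single value for the age, so there are no error bars. Tas1r3 has the tallest bar at both ages, 10.3 and 14.6 FPKM, and the wider gap between the ages.

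All 3 members had a higher value at 6 months, as had 46.3% of the 12652 expressed genes, those whose mean of both ages reached 1 FPKM. The change is given as the 6 month minus the 2 month value of log2(FPKM + 1), a scale that understates the change of low genes. The change was 0.47 for Tas1r3, 0.23 for Tas1r2 and 0.08 for Tas1r1. As plain ratios of FPKM, the 6 month level was 1.42 times the 2 month level for Tas1r3, 1.19 times for Tas1r2 and 1.08 times for Tas1r1. On this scale, 0 of the 3 members differed by 1.5-fold or more, a size reached by 2.77% of the 12652 expressed genes. In the upward direction, 1.05% of these genes reached it.

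The size of the change differed among the members. A change at least as high as that of Tas1r3 was seen for 191 genes, or 1.51% of the expressed genes. The corresponding share was 5.64% for Tas1r2 and 25.2% for Tas1r1. Among the 4940 genes with a mean between 5 and 20 FPKM, the band that holds Tas1r2 and Tas1r3, a change as high was found for 1.05% with Tas1r3 and for 5.14% with Tas1r2. Among the 2666 genes between 1.5 and 5 FPKM, 31.9% had a change as high as that of Tas1r1. Tas1r3 thus lay towards the upper edge of the genes of its level and Tas1r1 well inside the bulk. The shares place the genes within 1 pair of values and are not error rates.

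**Figure D3:**
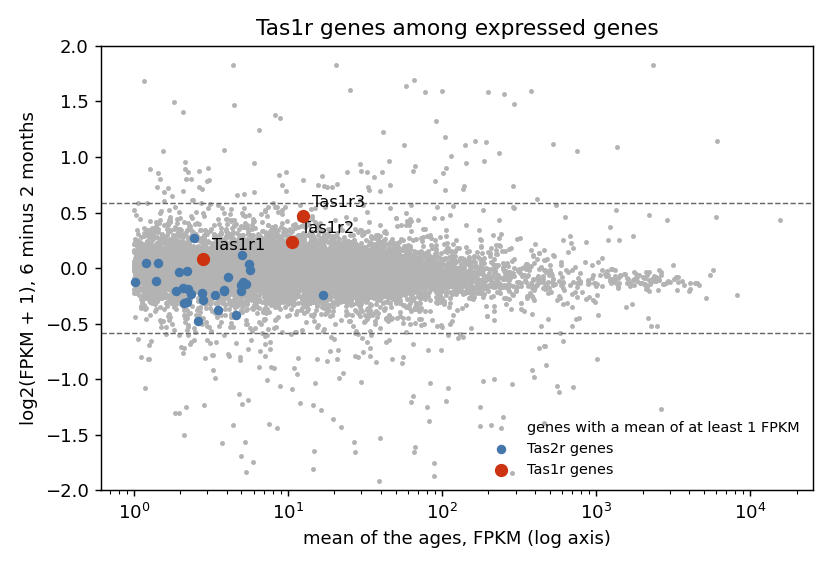
Change with age (y axis, log2(FPKM + 1) at 6 months minus 2 months) against the mean level of the ages (x axis, FPKM, log axis) for the 12652 expressed genes (grey), with Tas2r genes in blue and Tas1r genes in red. Dashed lines mark a 1.5-fold change, and 112 genes beyond 2 on the y axis are not drawn. Tas1r3 lies at 0.47, near the upper dashed line, above Tas1r2 at 0.23 and Tas1r1 at 0.08.

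The make-up of the Tas1r pool was compared between the ages, since Tas1r3 is needed by both of its partners. The 3 genes summed to 22.7 FPKM in the younger and 29.0 FPKM in the older cells. Tas1r3 made up 45.4% of this sum at 2 months and 50.3% at 6 months. The share of Tas1r2 was 42.7% and 39.7%, and that of Tas1r1 was 11.9% at 2 months and dropped by 1.90 percentage points. The level of Tas1r3 was 0.832 times the summed level of Tas1r1 and Tas1r2 at 2 months and 1.01 times at 6 months. By these single RNA values, the common subunit was below its summed partners at the younger age and level with them at the older. Whether this difference exceeds the spread between pools cannot be judged.

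The bitter receptor genes (Tas2r), the other receptor family of type II cells, were set beside the Tas1r genes. Of 35 Tas2r genes, 30 were expressed, and 25 of these 30 had a lower value at 6 months, as had 53.7% of all expressed genes. Their median log2 change was -0.19, against -0.01 over the 12652 genes and 0.23 over the Tas1r genes. Of the 30 Tas2r genes, 0 reached a change of 1.5-fold, a size reached by 2.77% of all expressed genes. The highest Tas2r level was that of Tas2r118, with 18.4 FPKM in the younger and 15.4 FPKM in the older cells, and it alone was above Tas1r3 and Tas1r2 at either age. Tas1r1 stood within the Tas2r range, with 17 Tas2r genes above it at 2 months and 14 at 6 months. The lowest Tas2r gene was Tas2r122, with 0.202 and 0.133 FPKM. Tas1r genes made up 15.8% of the summed Tas1r and Tas2r FPKM at 2 months and 21.7% at 6 months. Whether the 2 families differ in their change was not tested.

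Most of the signalling genes after the receptor were more abundant than the Tas1r genes, and all 10 that were measured had a smaller change than Tas1r3 in either direction. Of 12 listed genes of this cascade, 10 were found in the table, all of them expressed. Of the 10, 0 reached a change of 1.5-fold, a size reached by 2.77% of all expressed genes. The median change of the 10 was -0.04, with 4 higher and 6 lower at 6 months, beside 46.3% and 53.7% of all expressed genes. The counts turned to 8 higher and 2 lower when the ages were scaled to the same sum without small RNA genes. That scaling also lifted the median change of all expressed genes to 0.07, beside 0.06 for the 10 cascade genes. Gnat3, the alpha subunit gustducin, had 84.7 and 79.9 FPKM, and Gna14, an alpha subunit known from Tas1r3 cells of the posterior tongue, had 11.5 and 11.2 FPKM. Gna14 was thus the cascade gene closest to Tas1r2 and Tas1r3 in level. The beta and gamma subunits Gnb3 and Gng13 had 124 and 148 FPKM in the younger cells and 113 and 126 FPKM in the older cells. Plcb2, the phospholipase that the G protein activates, had 53.3 and 55.1 FPKM, and Itpr3 had 35.0 and 42.1 FPKM. Trpm5 had 29.1 and 27.7 FPKM. Calhm1, a subunit of the channel that releases the transmitter ATP, had 2.39 and 2.77 FPKM.

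The Tas1r levels were then set against Plcb2, Trpm5, Gna14, Itpr3, Gnat3 and Gng13. The Tas1r3 level was 19.3% of the Plcb2 level at 2 months and 26.5% at 6 months. Against Trpm5 it was 35.4% and 52.7%, and against Gna14 it was 89.8% and 131%. Tas1r2 was 18.2% of Plcb2 at 2 months and 20.9% at 6 months, and Tas1r1 was 5.06% and 5.27%. Against Itpr3, Tas1r2 was 27.6% at 2 months and 27.4% at 6 months, and Tas1r1 was 7.70% and 6.89%. Tas1r3 was 29.4% and 34.7% of Itpr3. In bulk RNA of pooled cells, a change in the number of cells that carry a receptor and a change in its RNA per cell cannot be told apart.

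**Figure D4:**
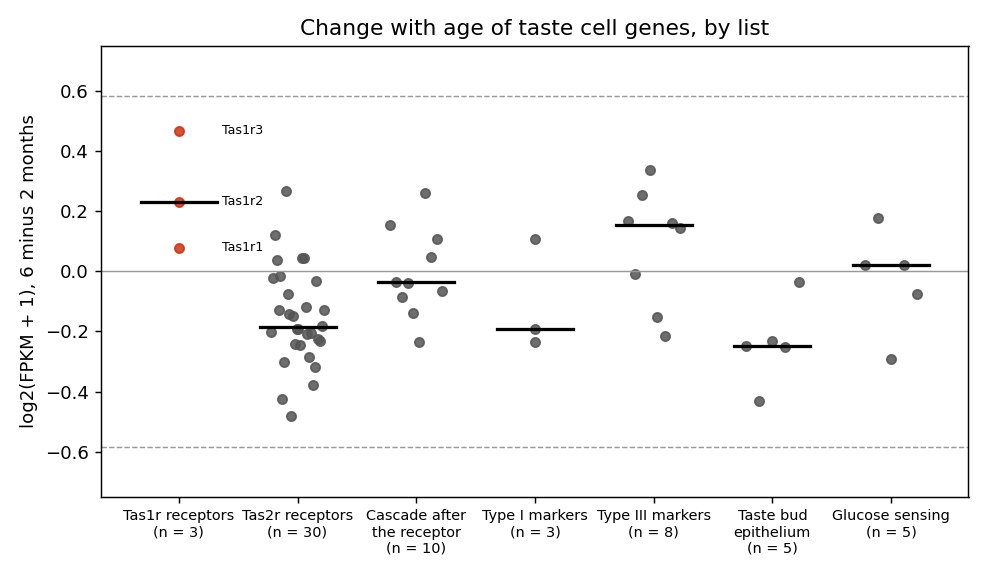
Change with age (y axis, log2(FPKM + 1) at 6 months minus 2 months) of expressed genes, by gene list (x axis, n genes in brackets). Points are genes, horizontal bars are list medians and dashed lines mark a 1.5-fold change. The Tas1r genes (red) have a median of 0.23 and the Tas2r genes a median of -0.19, and no point of the lists drawn passes a dashed line.

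Other receptors and transporters that have been linked to sweet or umami taste were mostly weakly expressed. Of 9 class C receptors for amino acids and calcium outside the family, Grm4 alone was expressed by this measure, with 4.26 FPKM in the younger and 4.75 FPKM in the older cells, above Tas1r1 at both ages. Casr, the calcium-sensing receptor, had 0.364 and 0.451 FPKM. Gprc6a was at 0.0185 FPKM at 2 months and is listed at 0 at 6 months. Of 12 genes of glucose uptake and metabolic glucose sensing, 5 were expressed, with a median change of 0.02. Of the 5, 0 differed by 1.5-fold, a size reached by 2.77% of all expressed genes. Slc5a1, the sodium-glucose cotransporter, had 46.7 and 44.3 FPKM and so was above each Tas1r gene. The KATP channel genes Kcnj11 and Abcc8 had 0.676 and 0.366 FPKM in the younger cells and 0.652 and 0.394 FPKM in the older cells. Of 5 modulators of sweet responses, the insulin receptor Insr alone reached a mean of 1 FPKM, with 7.40 and 7.87 FPKM. The leptin receptor Lepr had 0.336 and 0.440 FPKM. A value of exactly 0 need not mean no transcript, because the epithelial keratin gene Krt4 is listed at 0 at 6 months after 7334 FPKM at 2 months, and Krt13 is listed at 0 at both ages.

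Markers of the taste cell types were measured at both ages. Of 6 type II markers other than receptors, 0 differed by 1.5-fold, a size reached by 2.77% of all expressed genes. All of these markers but Pou2f3 are cascade genes given above. Of the 6, 2 were higher and 4 lower at 6 months, and 5 were higher and 1 lower when scaled without small RNA genes. Under that scaling their median change was 0.04, against 0.07 over all expressed genes. Their summed level was 366.8 FPKM in the younger and 346.7 FPKM in the older cells. Pou2f3, the transcription factor on which type II cells depend, had 16.3 and 15.9 FPKM. The 4 type I markers summed to 77.6 and 68.2 FPKM, and the 8 type III markers to 50.6 and 53.3 FPKM, with 0 past 1.5-fold in either list. Of the 8 type III markers, 5 were higher at 6 months, as were 46.3% of all expressed genes. Their median change was 0.15, with a range from -0.22 to 0.34. Of the 3 expressed type I markers, 2 were lower, with a median of -0.19. The 5 genes of the taste bud epithelium, among them the keratin gene Krt8, were all lower at 6 months, as were 53.7% of all expressed genes. The median change of the 5 was -0.25, with sums of 781.0 and 637.2 FPKM.

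Genes of other tissues differed between the ages beside the Tas1r values. Of 4 expressed skeletal muscle genes, Acta1, Ckm and Tnnt3 were at least 1.5-fold higher at 6 months, where 1.05% of all expressed genes were, and the 5 listed genes summed to 8.86 and 15.9 FPKM. Of 4 expressed gland genes, Lipf and Bpifb1 were at least 1.5-fold lower, where 1.72% of all expressed genes were, and the 5 listed genes summed to 147.1 and 53.1 FPKM. Of 5 expressed keratinocyte genes, Krt10 was at least 1.5-fold lower, as was Krt4 by its listed 0, where 1.72% of all expressed genes were. The 4 genes other than Krt4 and Krt13 summed to 3657 and 3592 FPKM, with a median change of -0.36. Fibroblast, endothelial and leukocyte genes summed to 1.59, 0.401 and 16.6 FPKM in the younger cells and to 1.34, 0.403 and 14.1 FPKM in the older cells. Of these lists, 1 fibroblast, 0 endothelial and 3 leukocyte genes were expressed, too few for a count past the fold to say much. The part of such cells in the Tas1r values was not tested.

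The protein-coding neighbours of the members were also read. Zbtb48 lies 238 bases from the end of Tas1r1 on the same strand, with 8.16 and 9.67 FPKM and a change of 0.22. Nol9, on the other side of Tas1r1, had a change of 0.06. Aldh4a1 beside Tas1r2 had a change of 0.17, and Pax7 on its far side is listed at 0 at 6 months after 0.00443 FPKM. Dvl1 had a change of 0.20 and Cptp, on the other side of Tas1r3, had 0.02. The change of Tas1r3 was above that of both of its neighbours.

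By distance over the log2(FPKM + 1) values of the 2 ages, the genes most like Tas1r3 were Slc6a19 at 0.02, Lrp1 at 0.07 and Cd109 at 0.07. Within a distance of 0.1, 5 genes were found for Tas1r3, 58 for Tas1r2 and 128 for Tas1r1. Btbd7, Birc6 and Fert2 were nearest to Tas1r2, and 4922501C03Rik, Sez6l2 and Pkn3 to Tas1r1. With 2 values per gene, such likeness says only that level and change are close.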

How the data were processed

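RNA of isolated CV/Fol taste cells was measured in 6 libraries, 3 at each age. Per the paper's methods, the authors ran TopHat2 2.0.7 on GRCm38/mm10 with RefSeq gene models, then Cufflinks 2.1.1 and Cuffdiff. The authors deposited FPKM, 1 value per gene and age, over the libraries of that age. A column of unadjusted p-values of the authors' own comparison was not used. Column B was taken as 6 months and S as 2 months from the sample titles. FPKM holds no read number, so the depth of the libraries is unknown and no interval is given. The normalization of libraries within Cuffdiff is not given in the sources used here.

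Changes are differences of log2(FPKM + 1). Genes whose mean of both ages reached 1 FPKM were counted as expressed, and a call is a change of at least 1.5-fold. No test was made, since no replicate value is at hand. The members and the 17 gene lists were chosen with earlier results of these data known. Named genes are the members, listed genes, the nearest protein-coding neighbours in RefSeq GRCm38.p6 and the 3 genes nearest to each member, with Cptp matched by the older symbol Gltpd1. Calhm3 and Rgs21 were not matched, and 1 listed gene is not reported here. The list of other class C receptors is described by counts, and that of sweet modulators by a count and named genes. Of 9 other class C receptors, 4 were expressed, with a median change of -0.05 and 0 calls, beside calls for 2.77% of all expressed genes. Sequences come from GENCODE M21 transcripts, aligned with Biopython 1.88 (match 2, mismatch -1, gap opening -12, extension -1). Alternatives were pseudocounts of 0.1 and 0, 4 scalings, filters of 0 and 5 FPKM and a 2-fold call. The arithmetic of the fold calls was checked on simulated data with known changes, which says nothing of replicate error. Python 3.11.15, numpy 2.4.6, pandas 2.3.3 and matplotlib 3.10.9 were used.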

Additional observations from a re-analysis of the deposited data

How the results depend on the processing

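No paired analysis was possible because single libraries have no column here, and for the same reason no replicate was left out. The place of all 3 Tas1r genes under 1.5-fold held under each of 6 alternatives. Their higher value at 6 months was kept too, but these alternatives could not have reversed it. A change of pseudocount cannot turn the direction of a difference. Each scaling raised the 6 month values, by factors from 1.01 to 1.07, and so could only add to a positive change. The change ranged from 0.08 to 0.15 for Tas1r1, from 0.23 to 0.32 for Tas1r2 and from 0.47 to 0.56 for Tas1r3. It was highest in each case when the ages were scaled to the same sum without microRNA and small nucleolar RNA genes. The share of these small RNA genes in all FPKM was 8.67% in the younger and 10.8% in the older cells. The sum over all genes, Krt4 included, also differed, with 695839 FPKM in the younger and 666442 FPKM in the older cells. The scaling without small RNA genes left 21 of the 30 Tas2r genes lower, with a median change of -0.12, against 0.07 over all expressed genes. Scaling on the type II markers gave 0.48 for Tas1r3. The log2 ratio of Tas1r3 to its summed partners was 0.28 higher at 6 months, which restates its share in another form and is no separate check. The number of genes past the fold was 350, and 202 at 2-fold, and between 262 and 459 with no filter, a filter of 5 FPKM, a pseudocount of 0.1 or upper quartile scaling. The count of cascade genes past the fold was 0, also with upper quartile scaling. With no filter or at 2-fold it had to stay 0, since all 10 were expressed and 0 reached 1.5-fold. The other alternatives were not run for these counts. Depth is unknown, so its limit on the low Tas1r1 value cannot be given.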
